A study of Limonium bicolor with 5 samples.

Results

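The NAC transcription factors of Limonium bicolor leaves were followed through 5 stages of leaf development. The 73 genes described here are those of the 18327 genes in the deposited table whose Arabidopsis annotation names a NAC domain, a NAC (No Apical Meristem) domain, a NAC-like or NAC-domain protein, or a NAC transcription factor. Limonium bicolor is a salt-secreting plant, and the material was the first true leaf grown in tissue culture, sampled as the undifferentiated leaf (stage A), the leaf with differentiated salt glands (stage B), with differentiated stomata (stage C), with a differentiated epidermis (stage D), and the mature leaf (stage E). The labels give pools of some 5000, 4000, 2000, 1000 and 1000 dissected leaves in the order of the stages. Leaves of all stages came from tissue culture, and no age in days, genotype or salt treatment is given in the labels. Each stage is 1 column of the table, so the differences below could not be set against a spread between replicates, and no p-value is given.

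NAC proteins are plant-specific transcription factors that bind DNA through a conserved N-terminal domain and carry a variable C-terminal part that activates or represses transcription. In Arabidopsis, members of the family draw the borders between organs, switch on the secondary wall of vessels and fibres, answer to drought, abscisic acid and oxidative stress, and set the pace of leaf senescence. Several are held at a membrane and released when a stress signal arrives. The roles given below are those known from Arabidopsis, and each gene is named by the symbol of the Arabidopsis locus paired with it in the table. None was measured in Limonium here. Some annotation numbers are shared by a pair of loci, so loci and not annotation numbers identify the members.

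Levels are in RPM (the reads of a gene scaled by the total reads of its stage) and are not divided by gene length, so a level can be compared between stages of 1 gene but not between genes. Stage A rested on 5939374 reads, and the other stages on 12945184 to 16556653, so that a count of 3 reads stood for 0.505 RPM in stage A and for 0.181 to 0.232 RPM elsewhere. The leaf markers rubisco activase and carbonic anhydrase 1, typical of mesophyll, were present in every stage. They summed to 339, 1230, 10413, 29710 and 8267 RPM in stages A to E. In bulk leaves, fewer cells of a type and less RNA per cell cannot be told apart.

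The NAC genes drew few reads. Over stages A to E the median member stood at 2.36, 1.51, 4.06, 2.02 and 3.24 RPM, while the median of all genes, of whatever length, lay between 13.5 and 17.2 RPM. Of the 73 members, 72 reached 1 RPM in some stage, 43 reached 5 RPM and 14 reached 20 RPM. ANAC090 was the member that stayed below 1 RPM. The 43 members that reached 5 RPM are 58.9% of the family, against 85.1% of all genes. All members together summed to 454, 399, 451, 489 and 624 RPM over the 5 stages. Stage E held the highest sum and the largest number of members at 5 RPM or more, 28, against 18 in stages A and D.

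**Figure D1:**
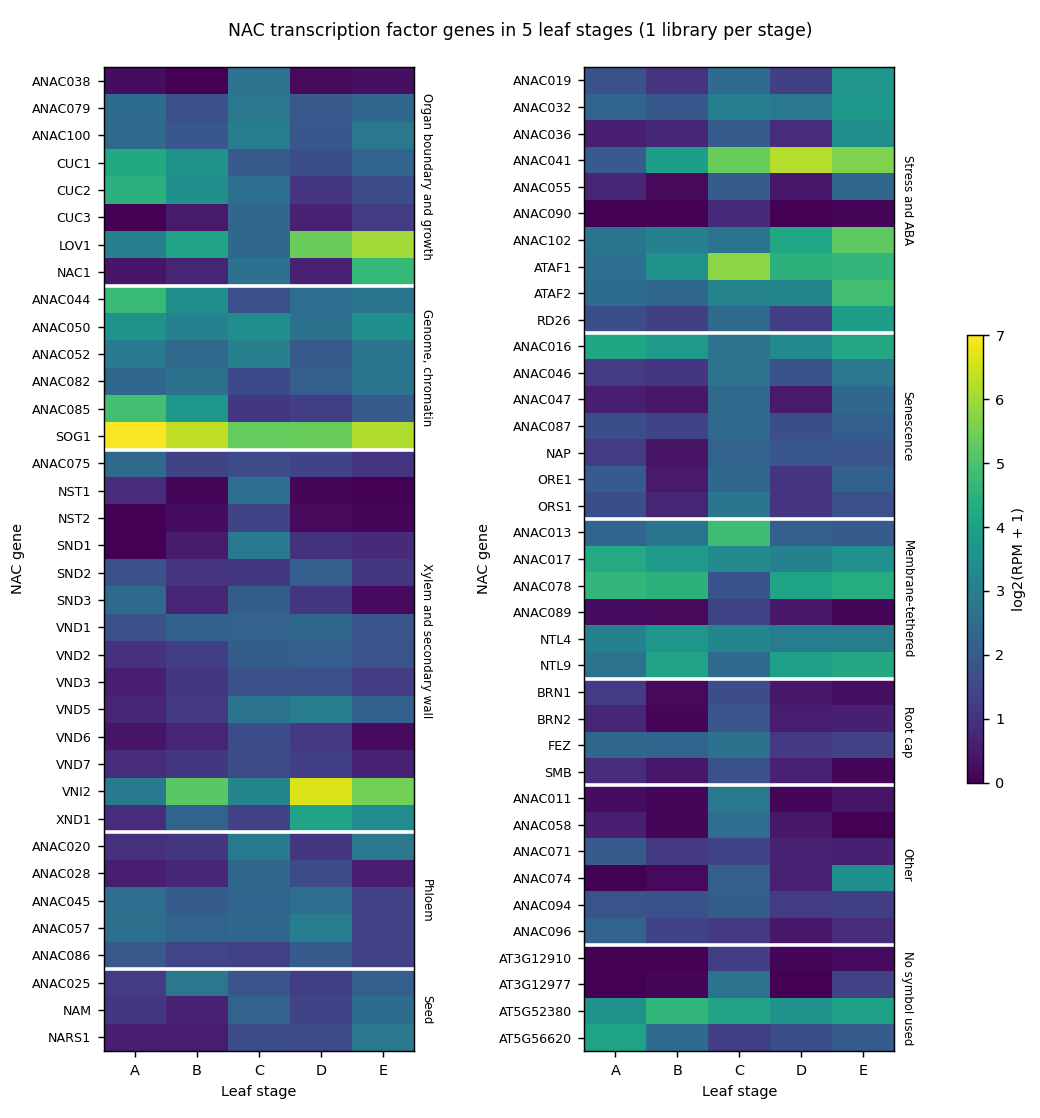
Heat map of the 73 NAC genes (rows, grouped by their role in Arabidopsis) in the 5 leaf stages (columns); colour is log2(RPM + 1), with 1 library per stage. SOG1 is bright throughout with its highest value in stage A, VNI2 and ANAC041 are brightest in stage D, and many rows that are dark elsewhere are lighter in stage C.

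Stage C stood apart for the weakly expressed members. Among the 37 members that stayed under 5 RPM in stages A, B, D and E, 25 had their highest value in stage C (67.6%, against 52.5% of the 3618 such genes in the whole table). Among the 36 members that reached 5 RPM outside stage C, 5 were highest there (13.9%, against 19.2% of 14709 genes). No member was at 0 reads in stage C, and the lowest, ANAC090, had 0.770 RPM, whereas 7 members had 0 reads in stage A. The same lift was present in the whole table. The 875 genes below 1 RPM in all of the other 4 stages had a median of 2.59 RPM in stage C, and 81.5% of them reached 1 RPM there. The median was 3.85 RPM for those paired with Arabidopsis chromosome 1 and 2.03 RPM for those of chromosome 5. Of the NAC genes, 10 met this condition, and their median in stage C was 2.45 RPM. They were ANAC011, SMB, ANAC038, NST1, NST2, ANAC058, BRN2, ANAC089, ANAC090 and the locus AT3G12910. A stage C value of a few RPM in a member that is near 0 elsewhere therefore lies at the level that genes of any kind showed in that library, and whether it reflects the leaf or the library was not tested.

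**Figure D2:**
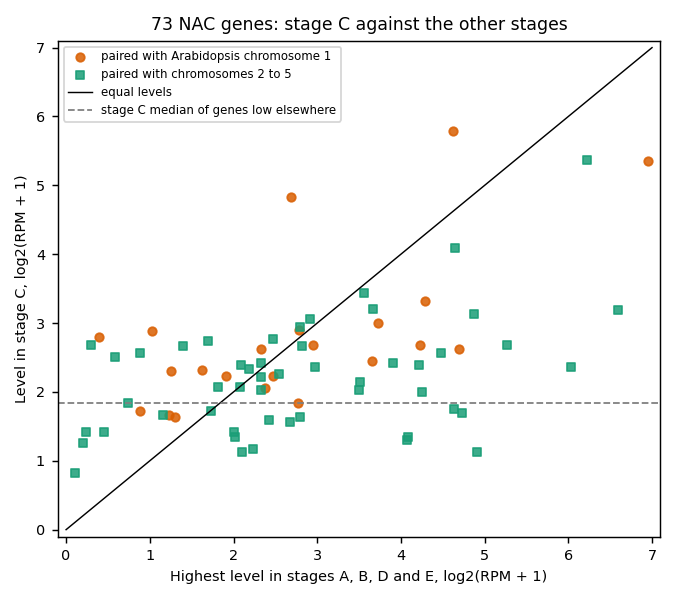
Scatter plot of the level of each of the 73 NAC genes in stage C (y axis) against its highest level in stages A, B, D and E (x axis), both as log2(RPM + 1); circles are genes paired with Arabidopsis chromosome 1 and squares those of chromosomes 2 to 5. Most genes low elsewhere lie above the line of equal levels, around the dashed median of 2.59 RPM of 875 genes low elsewhere, and most genes high elsewhere lie below the line.

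Genes count as changed below where log2(RPM + 1) moved by 1 or more and the higher of the stages had 5 RPM or more. Between stages A and B 9 of 72 members changed, 6 higher and 3 lower in stage B (12.5%, against 10.6% of the 18165 genes with at least 1 RPM in some stage). For all genes the split there was 7.47% higher and 3.1% lower; after median-of-ratios scaling it was 5.33% and 4.39%, with 4 members each way. Between stages B and C 15 rose and 9 fell (33.3%, against 38.3% of all genes, of which 15.3% were higher and 23% lower). Scaling turned that balance of all genes to 19.6% higher and 16.4% lower, with 18 members higher and 7 lower. From stage C to D 6 rose and 12 fell (25%, against 37% of all genes, with 17.4% higher and 19.5% lower). Stage D set directly against stage B gave 6 higher and 5 lower (15.3%, against 30% of all genes). From stage D to the mature leaf 10 rose and 2 fell (16.7%, against 19.7% of all genes, with 13.1% higher and 6.65% lower). Here too scaling turned the balance of all genes, to 6.12% higher and 10.2% lower, with 7 members higher and 5 lower. From stage A to the mature leaf 17 rose and 6 fell (31.9%, against 32.3%). Weakly expressed genes seldom meet the rule. Among genes with 5 RPM or more in either stage of a pair, the share called was 39.1% to 69.7% of the NAC genes, which numbered 23 to 35, and 14.2% to 47.8% of all genes, and the NAC share was the higher one in each of the 6 comparisons. A gene can pass that filter through the stage in which it is high, so neither form of the share was read as a property of the family. Of the 73 members 39 were called in at least 1 of these 6 comparisons and 34 in none. The like share over all genes is not given here, so these counts are not read as a result about the family.

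In stage E against stage A 23.6% of the NAC genes were higher and 8.33% lower, where 18.6% of all genes were higher and 13.7% lower. Between stages D and B 8.33% were higher and 6.94% lower, against 10.5% and 19.5% of all genes, whose median difference on the log2 scale was -0.29. The NAC median there was 0.16, or 0.45 above that of all genes. Scaling by median of ratios brought the median of all genes to 0.01, left that of the NAC genes at 0.36 and gave 10 members higher and 4 lower (13.9% and 5.56%), against 15.3% and 11.5% of all genes. The comparisons share stages, so their counts are not independent of each other.

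**Figure D3:**
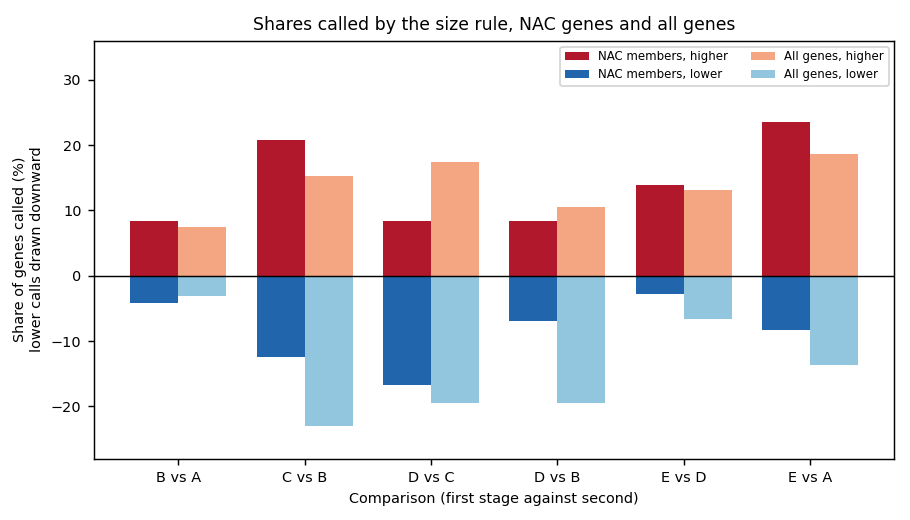
Bar chart of the share of genes called higher (upward) or lower (downward) by the size rule in each comparison, for the 72 NAC genes that reached 1 RPM and for all 18165 such genes. The share of NAC genes called lower is 6.94% in stage D against B, where 19.5% of all genes are lower, and the share called higher is 23.6% in stage E against A, where 18.6% of all genes are higher.

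The CUP-SHAPED COTYLEDON genes keep neighbouring organs apart and help to form the shoot meristem, and CUC1 and CUC2 were highest in the youngest leaf. CUC1 (AT3G15170) stood at 18.0, 11.2, 3.01, 2.20 and 3.79 RPM in stages A to E. CUC2 (AT5G53950), which also shapes the leaf margin, stood at 21.2, 10.4, 4.90, 1.16 and 2.16 RPM in stages A to E. Both values declined at each step to stage D and were slightly higher again in stage E. CUC1 fell 5.08-fold (3.54 to 7.48) between stages B and D, where the numbers in brackets give the exact 95% interval from the read counts, and CUC2 fell 9.0-fold (5.59 to 15.3). From stage A to E the falls were 4.76-fold (3.36 to 6.82) and 9.81-fold (6.47 to 15.3). CUC3 (AT1G76420), their partner at organ borders, had 0, 0.423, 3.92, 0.550 and 1.39 RPM in stages A to E. It never reached 5 RPM, and its highest value was in the library in which weak genes were lifted.

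Of the 8 members of this group, LOV1 and NAC1 were higher in stage E than in stage A. LOV1 (AT2G02450), known for delaying flowering and for cold responses, had 7.24, 16.1, 4.13, 41.1 and 64.3 RPM in stages A to E. It rose in stage B, a call lost after scaling, fell in stage C by 3.89-fold (2.92 to 5.25), and rose 2.56-fold (2.21 to 2.96) from stage B to D. Its rise from stage A to E was 8.88-fold (6.53 to 12.4). NAC1 (AT1G56010), a mediator of auxin signals in lateral root formation, was near the detection floor in young leaves and high in the mature leaf, with 0.337, 0.664, 5.18, 0.550 and 24.8 RPM in stages A to E. From stage D to E it rose 45.1-fold (23.5 to 99.5), on 9 reads in stage D and 321 in stage E. NAC1 also stood above both neighbouring stages in stage C. ANAC038 had 77 reads in stage C and 0 to 3 reads in every other stage. ANAC079 and ANAC100 were at 2.30 to 6.72 RPM in all stages and were called higher in stage C than in stage B, both by little more than the threshold. CUC1, CUC2, NAC1, ANAC079, ANAC100 and the senescence regulator ORE1 are known targets of the microRNA miR164 in Arabidopsis. This grouping was made after their values had been seen. They did not follow 1 course, since CUC1 and CUC2 were highest in stage A and NAC1 in stage E. ANAC079, ANAC100 and ORE1 were highest in stage C, the library in which weak genes were lifted, but by little. ANAC100 had 6.72 RPM there and 5.95 in stage E, and ORE1 4.06 and 3.55. ANAC079 had 5.81 RPM in stage C and 4.55 in stage A, so their peak stage is left open.

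Genes that work beside the CUC genes at the meristem and organ borders were compared with them. Of 11 such genes 3 were lower and 0 higher in stage D than in stage B, where 19.5% of all genes were lower. In stage E against stage A 5 of the 11 were lower and 0 higher, where 13.7% of all genes were lower. The median log2 difference of the 11 was -0.83 between stages B and D, where all genes had -0.29. Between stages A and E it was -1.80, where all genes had 0.09. LOF1, a MYB factor of organ borders, stood at 28.8, 3.08, 4.48, 0.0611 and 0 RPM in stages A to E. ATH1, a homeobox factor of the meristem and stem, went from 8.42 RPM in stage A and 6.22 in stage B to 0.183 in stage D and 0 reads in stage E. BOP2, which acts at the leaf base, fell from 6.95 to 2.26 RPM between stages B and D, and PNY, a homeobox partner of meristem factors, from 5.01 to 1.89 RPM; after scaling 1 of these 3 falls between stages B and D was still called. The meristem markers STM and KNAT1, which also belong to this list, summed to 14.8, 1.39, 0.280, 0.183 and 1.24 RPM over the stages, and were both above 0 in every stage. From stage A to B STM fell 13.6-fold (6.57 to 31.8) and KNAT1 8.76-fold (4.71 to 17.3), while CUC1 fell 1.61-fold (1.26 to 2.06). CUC2 went from 21.2 to 10.4 RPM there. The part of meristem tissue in the fall of the CUC genes was not tested.

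The NAC genes of the DNA damage response were also highest in stage A. SOG1 (AT1G25580), the factor that starts the plant's response to broken DNA, had 123, 79.8, 39.8, 40.5 and 70.7 RPM in stages A to E. None of the 6 comparisons called it. Its level in stage A was 3.09-fold (2.77 to 3.45) that in stage C, a pair outside those comparisons. ANAC044 (AT3G01600) and ANAC085 (AT5G14490), its closest relatives, which hold the cell cycle at the step before mitosis after damage, moved further. ANAC044 stood at 25.6, 10.3, 2.24, 4.64 and 5.41 RPM in stages A to E. ANAC085 stood at 29.1, 12.3, 1.19, 1.47 and 3.01 RPM in stages A to E. Both fell between stages A and B and again between stages B and C. From stage A to E ANAC044 fell 4.73-fold (3.54 to 6.38) and ANAC085 9.67-fold (6.80 to 14.1), and these calls held under every scaling tried. AT5G56620, annotated as NAC domain containing protein 99, had a like course, with 15.8, 4.41, 1.47, 2.20 and 3.09 RPM in stages A to E.

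A known target and a partner gene of SOG1 were not called between stages A and B, where ANAC044 and ANAC085 fell. BRCA1, a repair protein, had 94.5, 88.2, 7.07, 8.13 and 2.78 RPM in stages A to E. The mitotic cyclin CYCB1;1 had 44.4, 48.3, 8.54, 3.60 and 4.09 RPM in stages A to E. Both fell between stages B and D, by 10.9-fold (9.08 to 13.1) and 13.4-fold (10.3 to 17.8). Between stages A and E both fell as well. CYCB1;1 marks dividing cells, and the values of dividing tissue and of the damage response cannot be told apart here. The other members set in this group were nearer to constant. ANAC050 and ANAC052, which act with a histone demethylase, ranged from 5.25 to 10.8 RPM and from 2.93 to 7.35 RPM over the 5 stages, with both at their lowest in stage D, and the fall of ANAC052 from stage C to D was called. ANAC082, which links disturbed nucleoli to growth, ranged from 1.96 RPM in stage C to 5.41 RPM in stage E; its fall in stage C was lost after scaling.

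**Figure D4:**
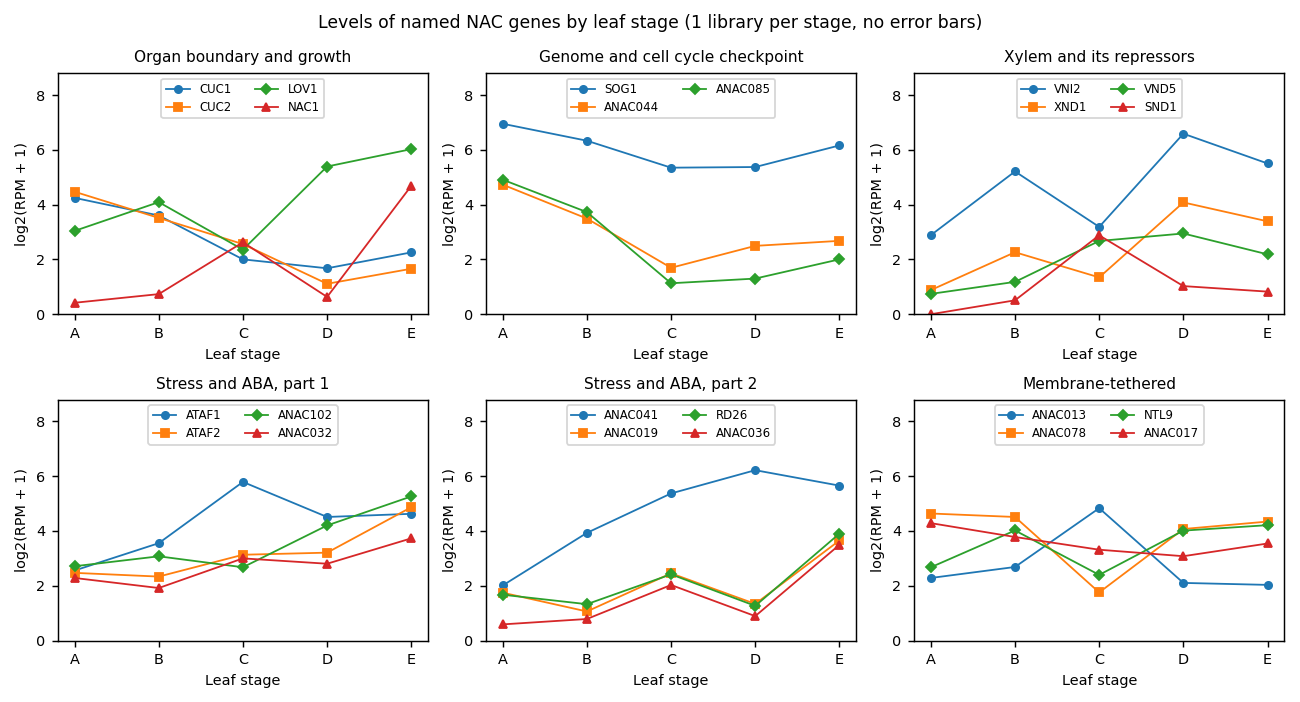
Line plots of the level of 23 named NAC genes (y axis, log2(RPM + 1)) over the 5 leaf stages (x axis), in 6 panels by role, with 1 library per stage and no error bars. CUC1, CUC2, ANAC044 and ANAC085 decline from stage A, VNI2 and XND1 peak in stage D, RD26, ANAC019 and ANAC036 stay low until stage E, and ATAF1 and ANAC013 peak in stage C.

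Among the 14 NAC genes of xylem and the secondary wall, the repressors VNI2 and XND1 and the activator VND5 were called in comparisons that leave out stage C, and SND1 around stage C alone. VNI2 (AT5G13180), which binds VND7 and holds back vessel formation and is also known for delaying leaf ageing under salt stress, had 6.40, 36.1, 8.12, 95.5 and 44.4 RPM in stages A to E. It rose 5.65-fold (4.07 to 8.06) from stage A to B, stood low in stage C, and rose 2.64-fold (2.40 to 2.91) from stage B to D. From there to the mature leaf it fell 2.15-fold (1.95 to 2.37), with an interval that reaches below 2-fold. Between those stages 5.32% of all genes fell with the whole interval beyond 2-fold. XND1 (AT5G64530), which limits the differentiation of xylem cells, had its stages in the same order, with 0.842, 3.81, 1.54, 15.9 and 9.50 RPM in stages A to E. It rose 4.19-fold (3.17 to 5.61) between stages B and D. Both genes are paired with chromosome 5, whose loci had a median log2 difference of -0.69 between stages B and C, and centred on that median VNI2 was still called lower in stage C (-1.34).

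The vessel master switches VND1, VND2, VND3, VND5, VND6 and VND7 stayed between 0.154 and 6.72 RPM in all stages. Of these, VND5 (AT1G62700) was the one that reached 5 RPM, with 0.673, 1.27, 5.39, 6.72 and 3.55 RPM in stages A to E. It rose 5.30-fold (3.30 to 8.90) from stage B to D. VND4, whose annotation lies outside the wording used to choose the members, had 10.2 RPM in stage C. VND6 (AT5G62380), a switch of metaxylem vessels, had 2 to 31 reads, and VND7 (AT1G71930), the switch of protoxylem vessels, had 5 to 30 reads. The table also annotates AT5G52380 as VASCULAR-RELATED NAC-DOMAIN 6. This locus had 10.9, 24.0, 16.0, 10.8 and 14.9 RPM in stages A to E, a course unlike that of AT5G62380, and it is kept apart from the vessel genes here. It is a member by that annotation alone, and whether it is a NAC gene was not checked. Its calls, higher in stage B than A and lower in stage D than B, were both lost after scaling.

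The fibre wall switches NST1, NST2 and SND1 were near 0 outside stage C. SND1 (AT1G32770) had 0, 7, 91, 17 and 10 reads in stages A to E. NST1 had 70 reads in stage C and at most 5 elsewhere, and NST2 24 and at most 3. Their levels in stage C, 1.68 to 6.37 RPM, lay in the range that genes silent elsewhere showed in that library. SND2 and SND3, which act after SND1 on wall genes, and ANAC075, known upstream of VND7, stayed below 5 RPM, and SND3 went from 25 reads in stage A to 2 in stage E.

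Genes known to lie downstream of these switches were compared with them. Of 18 secondary wall targets 11 were higher and 0 lower in stage C than in stage B, where 15.3% of all genes were higher. Of the 11 higher ones 7 were outside chromosome 1. The lignin regulators MYB58 and MYB63 and the switch MYB83, among the 11, had 271, 164 and 109 reads in stage C. They had at most 9 reads in any other stage, like the weak genes lifted in that library. Their levels in stage C were 19.0, 11.5 and 7.63 RPM. The upper quartile of the 875 genes below 1 RPM elsewhere was 6.44 RPM. It was 9.38 RPM for those of chromosome 1, with which MYB58 and MYB63 are paired. These genes are the ones of the list that rose most, so their place above the quartile was not read as a result. Against stage B, 5 of the 18 were higher and 0 lower in stage D, where 10.5% of all genes were higher and 19.5% lower. The median log2 difference of the 18 was 0.27, where all genes had -0.29. XCP2, a protease of dying vessel cells, rose 4.81-fold (4.37 to 5.30) in that comparison, from 31.2 to 149.8 RPM. LAC17, a laccase of lignin formation, rose 4.37-fold (3.80 to 5.04) and LAC4 4.59-fold (3.56 to 5.99). From stage A to E 4 of the 18 were higher and 1 lower, where 18.6% of all genes were higher and 13.7% lower. CESA4, a cellulose synthase of the secondary wall, rose 3.14-fold (2.61 to 3.80), LAC17 3.27-fold (1.93 to 5.91) and XCP2 2.77-fold (2.15 to 3.59), while IRX8, an enzyme of xylan formation, fell 3.18-fold (2.36 to 4.32). The 5 xylem markers XCP1, XCP2, CESA4, CESA7 and CESA8, all of them in this list, were above 0 in every stage and summed to 130, 204, 569, 471 and 242 RPM over the stages. From stage B to C the sum rose, as did VND5, from 1.27 to 5.39 RPM. VNI2 went the other way, from 36.1 to 8.12 RPM, and so did XND1, from 3.81 to 1.54 RPM. The sum was lower in stage E than in stage D, as were VNI2, XND1 and VND5 by their values. XCP1, XCP2 and CESA7 carried the difference, while CESA4 stood at 67.3 and 68.7 RPM and CESA8 at 57.1 and 53.5 RPM in stages D and E. The part of the xylem's share of the leaf in those differences was not tested. MYB46 and MYB83, the MYB switches directly below the NAC genes, were highest in stage C, at 7.56 and 7.63 RPM, and were at or below 0.428 RPM in stages D and E.

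The phloem group was weak. ANAC045 and ANAC086, which remove the nucleus from sieve elements, stood between 1.62 and 4.83 RPM and between 1.54 and 3.05 RPM. ANAC057 (AT3G17730) had 5.05, 3.74, 4.13, 6.84 and 1.62 RPM in stages A to E and fell 4.22-fold (2.63 to 7.08) from stage D to E. ANAC020 (AT1G54330), an early phloem gene, rose from 1.16 RPM in stage D to 5.87 RPM in stage E, and stood at 6.44 RPM in stage C. The phloem markers SUC2, APL and SEOR1 summed to 21.2, 37.5, 111, 267 and 285 RPM over the stages, with none at 0 in any stage. From stage D to E SEOR1 went from 208 to 122 RPM, SUC2 from 51.2 to 147 RPM and APL from 7.82 to 16.0 RPM, so the markers did not move together, and the part of phloem content in the fall of ANAC057 was not tested.

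The stress and abscisic acid group rose toward the mature leaf. Of its 9 members that reached 1 RPM, 8 were higher and 0 lower in stage E than in stage A, where 18.6% of all genes were higher. The same 8 were higher in stage E than in stage B, where 14.3% of all genes were higher and 14.3% lower. The comparison with stage B was added after the values had been seen. The median log2 difference of the 9 was 2.23 from stage A to E, beside 0.09 for all genes. Between stages D and E 5 rose and 0 fell (13.1% of all genes were higher); after scaling 4 rose, where 6.12% of all genes were higher. The group shares its name with conditions that were not applied here, since the labels give no salt, drought or hormone treatment.

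The ATAF subgroup, whose members respond to drought, wounding and low oxygen, rose at different stages. ATAF2 (AT5G08790) had 4.55, 4.05, 7.77, 8.25 and 28.2 RPM in stages A to E. It rose 3.42-fold (2.80 to 4.20) between stages D and E. ANAC102 (AT5G63790), known from low-oxygen responses, had 5.56, 7.43, 5.39, 17.4 and 37.4 RPM in stages A to E and rose 6.73-fold (4.73 to 9.89) from stage A to E. Its rise from stage D to E alone was lost after scaling. ATAF1 (AT1G01720) had 4.88, 10.8, 54.4, 21.8 and 23.7 RPM in stages A to E, with its maximum in stage C. Its fall from stage C to D was lost when differences were centred on chromosome 1, the chromosome it is paired with, while its rise of 4.86-fold (3.31 to 7.38) from stage A to E was not. ANAC032 (AT1G77450) rose 3.17-fold (2.04 to 5.15) from stage A to E, from 3.87 to 12.3 RPM.

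The trio of ANAC019, ANAC055 and RD26, which bind drought-response promoters in Arabidopsis, was low until the mature leaf. RD26 (AT4G27410) had 2.19, 1.51, 4.34, 1.41 and 14.0 RPM in stages A to E. ANAC019 (AT1G52890) had 2.36, 1.09, 4.48, 1.53 and 11.6 RPM in stages A to E. From stage D to E they rose 9.95-fold (6.43 to 16.1) and 7.59-fold (4.95 to 12.1). ANAC055 (AT3G15500) had 4, 2, 44, 6 and 52 reads in stages A to E, which is 4.02 RPM in stage E, below the 5 RPM needed for a call. All of the trio were higher in stage E than in stage D by values, and their second-highest value was in stage C. ANAC036 (AT2G17040), which stunts growth when overproduced, was close to their course, with 0.505, 0.725, 3.08, 0.855 and 10.3 RPM in stages A to E, and rose 12.0-fold (6.91 to 22.6) from stage D to E. Of the stress group, ANAC041 (AT2G33480) alone was called higher in stage B than in stage A. ATAF1 rose 2.20-fold (1.48 to 3.38) there without being called. ANAC041 stood at 3.03, 14.3, 40.4, 73.6 and 49.4 RPM in stages A to E. Its rise was 4.70-fold (2.91 to 8.07) when salt glands had appeared and 5.16-fold (4.48 to 5.96) from stage B to D.

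Few partners of the stress group could be followed. Of 5 measured genes 1 was higher and 0 lower in stage E than in stage A, where 18.6% of all genes were higher. Between stages B and D 0 of the 5 changed, where 30% of all genes did. AOX1A, a mitochondrial alternative oxidase, rose 12.9-fold (6.15 to 32.5) from stage A to E, from 1.18 to 15.2 RPM. ERD1, a protease whose promoter is bound by ANAC019, ANAC055 and RD26, had 0.842 RPM in stage A, 9.38 RPM in stage C and 0 reads in stages B, D and E. In stage E, where RD26 and ANAC019 were highest, ERD1 was not detected, which allows up to 0.232 RPM at 3 reads. ERD1 was below 1 RPM in every stage but C, the library in which weak genes were lifted. Its values therefore say little about a response to these factors. RD20, a calcium-binding protein induced by drought, had 4.04, 0.483, 0.280, 0.305 and 0.386 RPM in stages A to E; its level in stage A was 10.5-fold (3.91 to 35.1) that in stage E, below the 5 RPM needed for a call. DREB2A and RD22 also stayed below 5 RPM in every stage.

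Of the 7 members of the senescence group 1 was higher and 0 lower in stage E than in stage A, where 18.6% of all genes were higher and 13.7% lower. ORE1, ORS1 and NAP, which promote leaf ageing, stayed between 0.302 and 5.67 RPM, and each was highest in stage C. NAP (AT1G69490) had 8, 5, 53, 45 and 34 reads in stages A to E, so that stages C to E were above stages A and B on few reads. ANAC016 (AT1G34180), which promotes chlorophyll loss, had 16.3, 12.5, 5.39, 9.16 and 17.8 RPM in stages A to E; it was called lower in stage C than in stage B, a call lost after scaling. ANAC046 (AT3G04060), an activator of chlorophyll breakdown genes, rose 4.47-fold (2.16 to 10.7) from stage A to E, from 1.35 to 6.03 RPM. ANAC047, which bends leaf stalks upward under flooding, and ANAC087, a partner of ANAC046 in root cap cell death, stayed below 5 RPM.

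Genes of leaf ageing and chlorophyll loss were compared with them. Of 17 measured genes 9 were higher and 1 lower in stage E than in stage A. Of all genes 18.6% were higher and 13.7% lower there. The median log2 difference of the 17 was 1.20, beside 0.09 for all genes. In stage D against stage B 6 of the 17 were higher and 1 lower, where 10.5% of all genes were higher and 19.5% lower. SWEET15, a sugar exporter first found as a senescence-associated gene, had 6.90, 2.84, 10.6, 86.3 and 501 RPM in stages A to E. SGR1, which takes magnesium out of chlorophyll, had 1.68, 3.02, 1.89, 28.2 and 15.4 RPM in stages A to E and rose 9.33-fold (6.96 to 12.8) from stage B to D. WRKY53, an early regulator of ageing, went from 0.842 RPM in stage A to 7.72 RPM in stage E. BFN1, a nuclease under the control of ORE1, rose 4.05-fold (3.29 to 5.02) from stage B to D and had 39.5 RPM in stage C. GLK2, a chloroplast development factor that ORE1 binds, fell 3.43-fold (2.80 to 4.21) from stage A to E. SAG12, the classical marker of advanced senescence, had 6, 2, 61, 4 and 1 reads in stages A to E, which is 0.0772 RPM in stage E. Its highest value, 4.27 RPM, was in stage C, the library in which weak genes were lifted. SAG113, a phosphatase activated by NAP, stayed between 0.560 and 2.36 RPM.

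**Figure D5:**
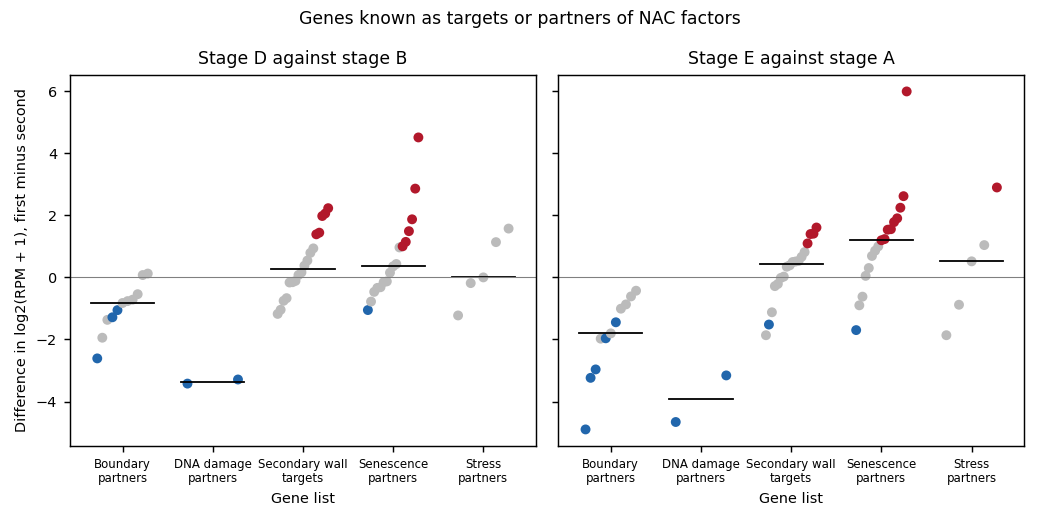
Strip plot of the difference in log2(RPM + 1) for each gene of 5 lists of known NAC targets or partners, in stage D against B (left) and stage E against A (right); red points were called higher, blue points lower and grey points neither, and black bars are list medians. Both plotted DNA damage partners lie below -3 in both comparisons. The senescence list has 9 genes called higher and 1 lower in stage E against A, where 18.6% of all genes were higher and 13.7% lower.

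Apart from ANAC089, which stayed below 1 RPM outside stage C, the membrane-tethered factors were above 1 RPM in every stage, and several shifted in stage C. ANAC013 (AT1G32870), which carries mitochondrial stress signals to the nucleus, had 3.87, 5.44, 27.5, 3.30 and 3.09 RPM in stages A to E. It rose 5.06-fold (4.02 to 6.44) and fell 8.34-fold (6.26 to 11.3) around stage C, and both calls held when differences were centred on chromosome 1. ANAC078 (AT5G04410), which acts in high light and proteasome stress, had the opposite course, with 23.9, 21.8, 2.38, 15.8 and 19.3 RPM in stages A to E. It fell 9.16-fold (6.44 to 13.4) in stage C and rose 6.65-fold (4.64 to 9.81) in stage D. NTL9 (AT4G35580), a calmodulin-binding repressor of defence genes, had 5.39, 15.2, 4.27, 15.2 and 17.5 RPM in stages A to E, with a rise of 3.25-fold (2.24 to 4.87) from stage A to E and a dip in stage C. ANAC017 (AT1G34190), the partner of ANAC013 in mitochondrial signalling, and NTL4 (AT3G10500), which raises reactive oxygen in drought, were called in none of the comparisons, at 7.45 to 18.5 RPM and 6.72 to 11.7 RPM. ANAC013 and ANAC017 share AOX1A as a known target. Its highest value was in stage E, where ANAC013 stood at 3.09 RPM and ANAC017 at 10.7 RPM.

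Most of the remaining members stayed below 5 RPM. The root cap regulators FEZ, SMB, BRN1 and BRN2 stayed at or below 5.18 RPM in these leaves and were all highest in stage C. Of the seed coat and seed genes, NARS1 (AT3G15510) rose 11.8-fold (3.88 to 58.4) from stage A to E to reach 5.95 RPM. ANAC025 (AT1G61110), known from the endosperm, was highest in stage B, with 1.35, 5.80, 2.59, 1.47 and 3.24 RPM in stages A to E; it rose 4.30-fold (2.10 to 10.3) when salt glands had appeared and fell 3.95-fold (2.51 to 6.47) by stage D. ANAC074 (AT4G28530), which ends the life of stigma cells, had 0, 2, 49, 9 and 135 reads in stages A to E and stood at 10.4 RPM in the mature leaf. ANAC071, a gene of wound healing, and ANAC096, an abscisic acid partner, were highest in stage A at 3.03 and 3.70 RPM and did not reach 5 RPM. ANAC011, a locus of chromosome 1, and AT3G12977, which carries no symbol here, stood at 5.95 and 5.32 RPM in stage C and at 0.0604 RPM in stage B; both fell again in stage D.

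Stage B against stage A, the step at which salt glands appeared, had 9 called NAC genes of 72 (12.5%, against 10.6% of all genes). VNI2, ANAC041, ANAC025, NTL9, LOV1 and AT5G52380 rose, and ANAC044, ANAC085 and AT5G56620 fell. For VNI2, ANAC041, ANAC025 and AT5G56620 the whole counting interval lay beyond 2-fold, as it did for 3.98% of all genes upward and 1.97% downward. Scaling removed LOV1 and AT5G52380 and added CUC2 to the lower ones. Stage A had the fewest reads, and VNI2, ANAC041 and ANAC025 rested on 38, 18 and 8 reads there.

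Among the 43 members that reached 5 RPM, the highest value fell in stages A to E for 9, 3, 12, 5 and 14 of them. In percent these are 20.9, 6.98, 27.9, 11.6 and 32.6, beside 21.5, 17.5, 23.8, 11.2 and 25.9 for all 15603 genes that reached 5 RPM. Of the 12 that were highest in stage C, 6 were paired with chromosome 1, which holds 14 of the 43 members. Chromosome 5 holds 12 of the 43, and 2 of these were highest in stage C. The same lean was present in the whole table. Among all genes that reached 5 RPM, 37.99% of those of chromosome 1 were highest in stage C, against 12.08% of those of chromosome 5. Without stage C, 36 members reached 5 RPM, and 17 of them (47.2%, against 31.6% of all genes) were highest in the mature leaf, 10 in stage A, 5 in stage D and 4 in stage B. With median-of-ratios scaling the mature leaf held 11 of 45 and stage C 16.

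Another 5 loci that carry NAC symbols in Arabidopsis have annotations outside the wording used to choose the members and are not counted above. These are VND4, ANAC014, NTL8, NTM2 and TIP, and all 5 were highest in stage C, at 10.2, 13.5, 2.73, 1.26 and 5.46 RPM. All 5 stayed under 5 RPM in the other stages. Of the 3618 such genes in the whole table, 52.5% were highest in stage C, the library in which weak genes were lifted.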

How the data were processed

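Per the file headers, the deposited values are RPKM, but they behave as RPM (reads scaled by library total, whatever the gene length). In each stage 100% of the values lay within 0.001 reads of a whole multiple of 1 step, the same for long and short genes, and dividing by it gave whole reads. Which aligner and assembly were used, and how ambiguous reads were counted, is not given in the sources used here, so reads of near-identical NAC genes could have been split between loci. Each stage was 1 column and 1 library. The labels speak of a pair of lanes per stage, which could not be compared.

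Members were found by the words of the Arabidopsis annotations. Of the NAC loci paired with symbols by hand, 69 were members, 5 were in the table with other wording and 18 are not analysed here. The members, role groups and lists of partners were chosen with earlier results of these data known. A gene of the DNA damage list is not reported here and is left out of that list's counts. With 1 sample per stage no count test could be fitted. A gene was called by size, as a difference of 1 in log2(RPM + 1), 5 RPM in the higher stage and 1 RPM in some stage. A single gene's fold is the plain ratio of its RPM values (no pseudocount), with exact (Clopper-Pearson) 95% intervals. Where scaling is named, levels were rescaled by median of ratios over 17206 genes, and other alternatives changed the pseudocount (0.1 or 5), the minimum (none or 20 RPM), the fold (4) or centred differences by chromosome. Intervals and the floor of 3 reads cover counting error only. Values in all stages go to members with the 5 strongest rises and 5 strongest falls of a comparison, and to those at 50 RPM, or at 20 RPM with a 4-fold range. Further members are named where a role group is described. Python 3.11.15, numpy 2.4.6, pandas 2.3.3 and scipy 1.17.1 were used, and the rule and intervals were tested on simulated counts.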

Additional observations from a re-analysis of the deposited data

How the results depend on the processing

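Counts of called NAC genes are given as higher and lower, and settings not named left a count within 1.5 times of that reported. Of 205 recomputed counts 149 did so. For stage B against A (6 higher, 3 lower), a pseudocount of 5 gave 2 higher, a minimum of 20 RPM 2 higher, a 4-fold rule 1 and 0, whole counting intervals 3 and 1, and no minimum 6 lower. For stage C against B (15 and 9), a pseudocount of 5 gave 7 higher, no minimum 37 higher, a minimum of 20 RPM 3 and 2, a 4-fold rule 7 and 3, and loci of chromosomes 2 to 5, a setting added after seeing the data, 7 higher. For stage D against C (6 and 12), a pseudocount of 5 gave 5 lower, no minimum 28 lower, a minimum of 20 RPM 2 and 2, a 4-fold rule 4 lower, and loci of chromosomes 2 to 5 gave 5 lower. For stage D against B (6 and 5), scaling and centring by chromosome each gave 10 higher, a minimum of 20 RPM 3 and 1, a 4-fold rule 1 and 2, and a pseudocount of 5 gave 3 lower. For stage E against D (10 and 2), a pseudocount of 5 gave 6 and 1, no minimum 4 lower, a minimum of 20 RPM 3 and 1, a 4-fold rule 5 and 0, scaling 5 lower and whole intervals 1 lower. For stage E against A (17 and 6), a minimum of 20 RPM gave 7 and 3 and no minimum 11 lower. For stage E against B (15 and 3), a minimum of 20 RPM gave 6 and 0 and a 4-fold rule 8 and 0.

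Of members that reached 20 RPM, 5, 1, 2, 2 and 4 were highest in stages A to E; at 1 RPM, stage C held the highest value of 29 and stage D of 11. In the partner lists, a pseudocount of 5 gave 2 secondary wall genes higher in stage E than A, 3 senescence genes higher and 0 lower in stage D than B, and 1 boundary gene lower in stage D than B; scaling gave 0 senescence genes and 1 boundary gene lower in stage D than B. A higher pseudocount or minimum leaves fewer weak genes able to pass. For other changes the cause was not tested. Of 97 single calls, none changed sign; scaling lost 10, centring by chromosome 10, a pseudocount of 5 lost 36 and a pseudocount of 0.1 lost 0. Depth limits the weak members: 18 had at most 3 reads in stage A. No paired analysis was possible because each stage is 1 sample.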
